A study of Mus musculus with 16 samples.

Results

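The genes described here are 10 genes by which astrocytes are commonly recognised: Gfap, Slc1a2, Slc1a3, Aqp4, Clu, Gja1, Slc4a4, Glul, Apoe and Cd44. They were taken by name, as 10 of the 12393 genes that the array annotation names, through probe sets annotated with only 1 of these symbols. That gave 27 probe sets, and each gene is described by the 1 with the highest mean signal, with the others as a check. A probe set is a group of short probes on the array that reports 1 transcript, and its signal is a linear brightness. A gene was tested only if its average log2(signal + 16) was at or above the value that 40% of probe sets stay under, a signal of 51.1. Of the 10 genes, 6 did so (Slc1a3, Clu, Gja1, Slc4a4, Glul and Cd44), among 7619 genes tested in all. Gfap, Slc1a2, Aqp4 and Apoe lay below that level on average. Gfap, Aqp4 and Apoe did so on every array and are described as near background, while Slc1a2 did so through the arrays without Cre and was above it on 7 of the 8 CreER arrays. Gja1 in turn reached the level only through the arrays without Cre.

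Astrocytes take up released glutamate through the transporters encoded by Slc1a3 (GLAST) and Slc1a2 (GLT-1) and turn it into glutamine with glutamine synthetase (Glul). They buffer potassium, water and acid near vessels and synapses with the help of the water channel Aqp4 and the sodium bicarbonate cotransporter Slc4a4, are coupled through gap junctions of connexin 43 (Gja1), and secrete the lipid carriers Apoe and clusterin (Clu). Gfap is their intermediate filament protein, and Cd44 is the hyaluronan receptor found on some astrocytes, on glial progenitors and on reactive cells. Several of these genes, Slc1a3 and Gfap among them, are also used by the stem cells of the adult brain, so they do not mark astrocytes alone.

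The arrays were run on neural stem cells from adult mice, in a study of genes controlled by Tlx (gene Nr2e1), an orphan nuclear receptor of these cells. Every culture was Tlx(f/Z); f usually marks an allele open to deletion by Cre, and Z is not spelled out in the labels. They carried CreER, a Cre recombinase activated by 4-hydroxytamoxifen (4OHT), or no Cre; each kind received 4OHT or vehicle and was collected after 60 h or 36 h. The 8 groups of 2 arrays, 16 arrays in all, were CreER with 4OHT at 60 h and at 36 h, CreER with vehicle at both times, no Cre with 4OHT at both times and no Cre with vehicle at both times. The promoter that drives CreER, the number of culture lines per genotype and the age of the animals are not given in the sources used here. The 2 arrays of each group are described as biological replicates, with no mention of separate animals, and p-values therefore cover only the variation among these cultures. The genotypes may also differ by the culture line, which cannot be told apart from the presence of CreER. In bulk RNA, fewer cells of a type and less RNA per cell cannot be told apart.

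Median signal per array ran from 92.2 to 132.6, the lowest being CreER 4OHT 60 h replicate 1. Replicates correlated at r = 0.988 to 0.991 across genes. RNA integrity was followed by the actin controls, whose 5′/3′ ratio was 0.720 to 0.882 in CreER arrays at 60 h and 0.716 to 0.825 in CreER arrays at 36 h. Without Cre it was 0.773 to 0.891 at 60 h and 0.548 to 0.666 at 36 h. Of 16 stem and progenitor cell genes on the array 13 passed the filter. Vim (7127), Fabp7 (5728), Nes (2344) and Sox2 (1712) were bright by mean signal. So were Slc1a3 (1787), Glul (827) and Cd44 (788) of the 10 genes described, while Gfap and Aqp4 were near background. The summed signal per array was 174 to 341 for 12 microglial markers, 160 to 294 for 10 endothelial and mural markers and 57.8 to 149 for 5 ependymal markers. Of these 3 lists, 1, 1 and 0 genes passed the filter in that order, and C1qa (microglia) and Pecam1 (endothelium) had mean signals of 1.91 and 3.28. Other lists were brighter, at 7881 to 9772 for 10 oligodendrocyte lineage genes and 1187 to 2458 for 14 neuronal genes. For 9 fibroblast and meningeal genes the sum was 1167 to 1679. Of these brighter lists 4, 3 and 2 genes passed the filter in that order.

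TLX recognises the half-site AAGTCA in DNA, and the windows of the 10 genes that hold these letters are shown because the cultures were made to test genes that depend on TLX. The letters were searched on both strands (TGACTT on the other) in the 300 bases from 250 before to 50 after each RefSeq start in assembly GRCm38.p6. Of the 8 genes with a window that could be shown, 3 held them, in 3 of 11 windows, against 17% of 27025 genes and 15.1% of all 32851 windows. Slc4a4 carried them from base 35 on, with one of its listed starts counted as the first base (chr5:89027988-89028015, + strand). Gfap carried them from base 6 on, counted in the same way (chr11:102897178-102897207, − strand), and Slc1a2 carried the other strand's letters 83 bases before one of its starts (chr2:102706343-102706372, + strand). The capitals mark the half-site, and a match of 6 letters is a description, not a binding site.
Slc4a4: gaggaggaggggAAGTCAtgaggttgaa
Gfap: ggtgcttccaggAAGTCAggggcagattta
Slc1a2: taggacagcatgTGACTTctttgacatcaa

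In CreER cultures over both times, Slc4a4 and Slc1a3 were lower and Clu was higher after 4OHT than after vehicle. These 3 of 6 tested genes passed the test (limma, adjusted p under 0.05 over all 7619 genes), 1 higher and 2 lower. Of all genes tested 12.4% passed, 4% higher and 8.39% lower. These shares are 305 higher and 639 lower genes as deposited, against 1053 higher and 1457 lower after median scaling and 1492 higher and 1459 lower after quantile normalization. Glul, Gja1 and Cd44 did not pass.

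Slc4a4, the sodium bicarbonate cotransporter that moves bicarbonate across the astrocyte membrane, had signals of 150.2 and 165 in CreER cultures given 4OHT for 60 h, against 227 and 314 with vehicle. At 36 h it had 181 and 156 with 4OHT, against 209 and 285 with vehicle. All 4 arrays with 4OHT lay below all 4 with vehicle. Slc4a4 and Clu were the 2 of 6 tested genes whose treatments did not overlap at either time, as was the case for 17.8% of all genes. The means were 163 ± 13.7 with 4OHT and 258 ± 49.1 with vehicle (SD, n = 4 each), a log2 change of −0.60 ± 0.14 (SE; limma adjusted p = 0.00049). In cultures without Cre the gene had 193 and 212 at 60 h and 196 and 203 at 36 h with 4OHT, against 251 and 202 at 60 h and 214 and 236 at 36 h with vehicle. Those groups overlapped, with a log2 change of −0.15 ± 0.14 (SE). The interaction, which tests whether the response with CreER differed from that without Cre, was −0.45 with a 95% interval of −0.83 to −0.06 and did not pass over all genes (limma adjusted p = 0.31).

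A dimmer second probe set of Slc4a4 (1426432_a_at) had 99.0 and 88.6 in CreER cultures given 4OHT for 60 h, against 171 and 196 with vehicle. The 36 h arrays had 59.7 and 63.2 with 4OHT, against 145 and 172 with vehicle. Both times were thus separated by treatment, with a log2 change of −1.02 ± 0.16 over both times (SE; limma adjusted p = 8.3e-08). Another probe set (1421225_a_at) gave −0.44 ± 0.16 and did not pass (limma adjusted p = 0.059). The last one (1450169_at) was near background, between 1.04 and 25.5 on all arrays, and gave 0.13. Across the 16 arrays the 3 other probe sets correlated with the brightest at r = 0.64, 0.37 and −0.14, so the probe sets of Slc4a4 differed in pattern.

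Clu, which encodes the secreted chaperone and lipid carrier clusterin, had signals of 1107 and 1133 in CreER cultures given 4OHT for 60 h, against 889 and 785 with vehicle. The signals at 36 h were 929 and 958 with 4OHT, against 571 and 788 with vehicle. All 4 arrays with 4OHT lay above all 4 with vehicle. The means were 1032 ± 103 with 4OHT and 758 ± 134 with vehicle (SD, n = 4 each), a log2 change of 0.45 ± 0.13 (SE; limma adjusted p = 0.0114). Without CreER vehicle 36 h replicate 1, the lowest array of the 8, the change was 0.34 (limma adjusted p = 0.14), and without either CreER 4OHT 36 h array it also failed the test (adjusted p = 0.051 and 0.063). Without Cre, Clu had 151 and 178 at 60 h and 175 and 147 at 36 h with 4OHT, against 145 and 202 at 60 h and 156 and 179 at 36 h with vehicle, and the groups overlapped. The interaction was 0.51 with a 95% interval of 0.13 to 0.88 and did not pass (limma adjusted p = 0.17). The probe set used belongs to a type whose probes can also match other transcripts, but the other 3 correlated with it at r = 0.97 to 0.99 and gave 0.57 and 0.56, which passed, and 0.30, which did not (limma adjusted p = 0.17).

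**Figure D1:**
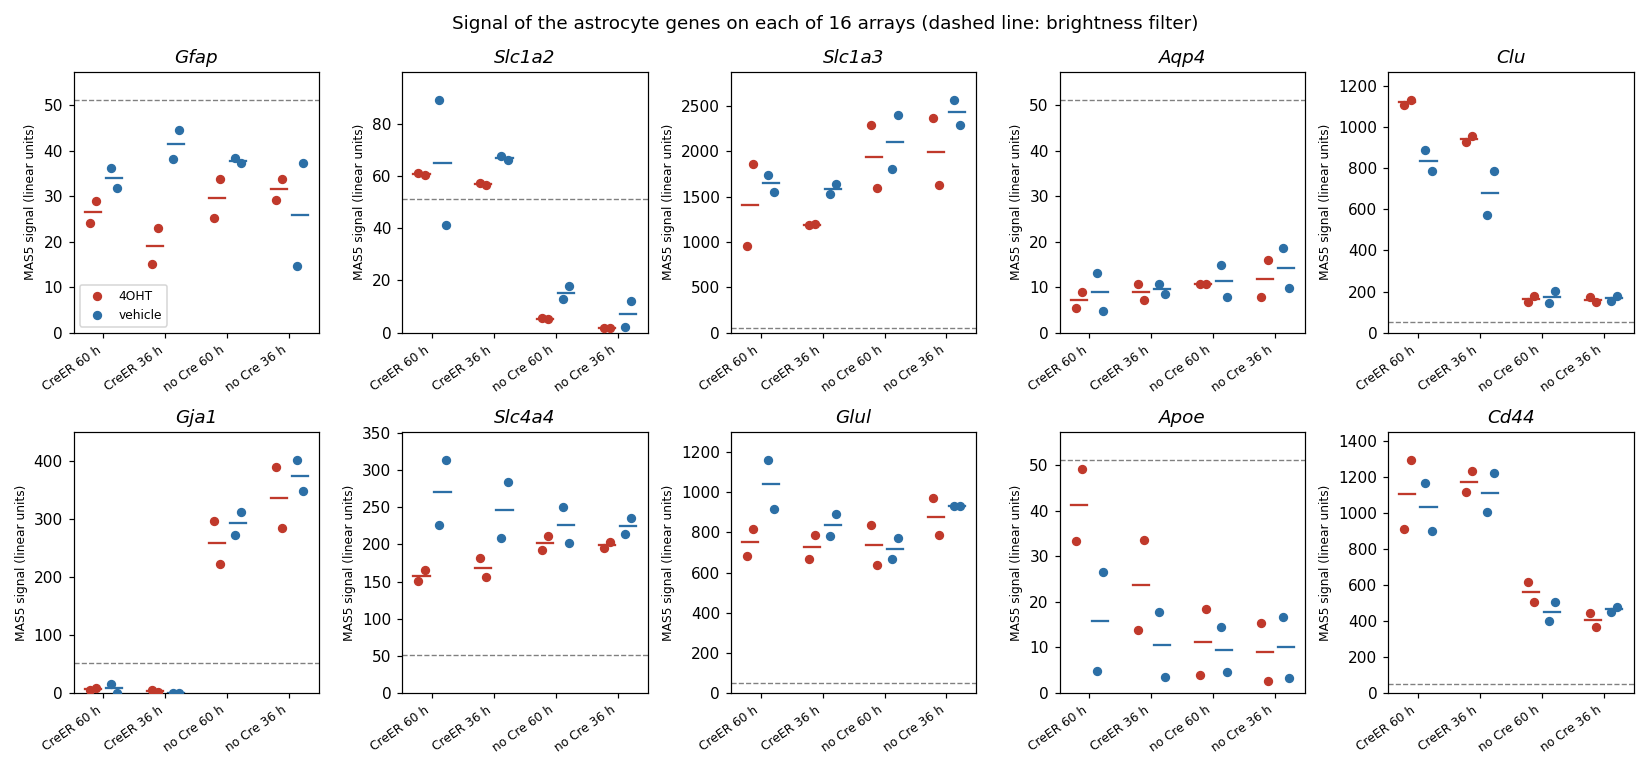
Signal of the brightest probe set of each of the 10 genes, 1 panel per gene with its own linear axis; points are single arrays, bars the mean of 2 arrays, red 4OHT and blue vehicle, and the dashed line is the filter. Clu lay between 571 and 1133 in CreER arrays and between 145 and 202 without Cre, and Gja1 at 15.7 or less in CreER arrays and at 222 or more without Cre.

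Of the glutamate handling genes, Slc1a3, the transporter GLAST, had 960 and 1864 in CreER cultures given 4OHT for 60 h, against 1739 and 1555 with vehicle. The 36 h cultures had 1183 and 1199.6 with 4OHT, against 1532 and 1641 with vehicle. The 36 h arrays were separated by treatment, while at 60 h the 4OHT arrays lay on both sides of the vehicle arrays. The means were 1302 ± 391 with 4OHT and 1617 ± 93.9 with vehicle (SD, n = 4 each), and the change of −0.35 ± 0.12 passed narrowly (SE; limma adjusted p = 0.0398). Without the low array, CreER 4OHT 60 h replicate 1, which was also the dimmest of all arrays, it was −0.11 (limma adjusted p = 0.68). The call was also lost without either CreER vehicle 36 h array, either CreER 4OHT 36 h array or CreER vehicle 60 h replicate 1, where the change stayed between −0.38 and −0.31 (limma adjusted p = 0.060 to 0.15). Its other 2 probe sets gave −0.30 and −0.22 and did not pass (limma adjusted p = 0.12 and 0.32). Without Cre the change was −0.21 ± 0.12 (SE), and the interaction was −0.14 with a 95% interval of −0.48 to 0.20.

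Glul, glutamine synthetase, had 684 and 817 in CreER cultures given 4OHT for 60 h, against 1160.3 and 918 with vehicle, and the arrays of that time did not overlap. At 36 h it had 665 and 788 with 4OHT, against 781 and 891 with vehicle, which overlapped. The change over both times was −0.33 ± 0.13 and did not pass (SE; limma adjusted p = 0.083). With each array scaled to a common median it was −0.28 and passed (limma adjusted p = 0.0034), and so did −0.23 after quantile normalization (limma adjusted p = 0.0016). Slc1a2, the transporter GLT-1, was not tested because its mean over all arrays was below the filter. It had signals of 61.1 and 60.5 in CreER cultures given 4OHT for 60 h, against 89.1 and 41.0 with vehicle. The values at 36 h were 57.2 and 56.4 with 4OHT, against 67.4 and 66.1 with vehicle. In a fit of all genes with no filter its change was −0.10 ± 0.19 (SE).

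Cd44, the hyaluronan receptor, had 913 and 1294 in CreER cultures given 4OHT for 60 h, against 1168 and 902 with vehicle. After 36 h it had 1114 and 1231 with 4OHT, against 1005 and 1220.0 with vehicle. The treatments overlapped at both times, and the change of 0.08 had a 95% interval of −0.18 to 0.34. Gja1 was at 15.7 or less in all 8 CreER arrays with either treatment, so its change of 0.10, with a 95% interval of −0.24 to 0.44, compares values near background.

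Of the genes near background, Gfap had 24.1 and 28.8 in CreER cultures given 4OHT for 60 h, against 36.1 and 31.7 with vehicle. At 36 h it had 15.02 and 22.9 with 4OHT, against 38.1 and 44.6 with vehicle. The treatments did not overlap, and in a fit of all genes with no filter the change was −0.48 ± 0.18, which did not pass (SE; limma adjusted p = 0.16). Its second probe set lay between 1.39 and 10.7 on all arrays and correlated with the probe set used at r = −0.69, so it did not share its pattern. Apoe, the lipid carrier apolipoprotein E, had 33.3 and 49.1 at 60 h and 13.8 and 33.7 at 36 h in CreER cultures with 4OHT, against 4.89 and 26.7 at 60 h and 17.7 and 3.53 at 36 h with vehicle. The treatments were separated at 60 h and overlapped at 36 h, and its change in the same fit was 0.75 ± 0.29 (SE; limma adjusted p = 0.16). Aqp4 stayed between 4.74 and 18.5 on all 16 arrays. In these 3 genes all arrays lay below the signal of 51.1 that the filter required.

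**Figure D2:**
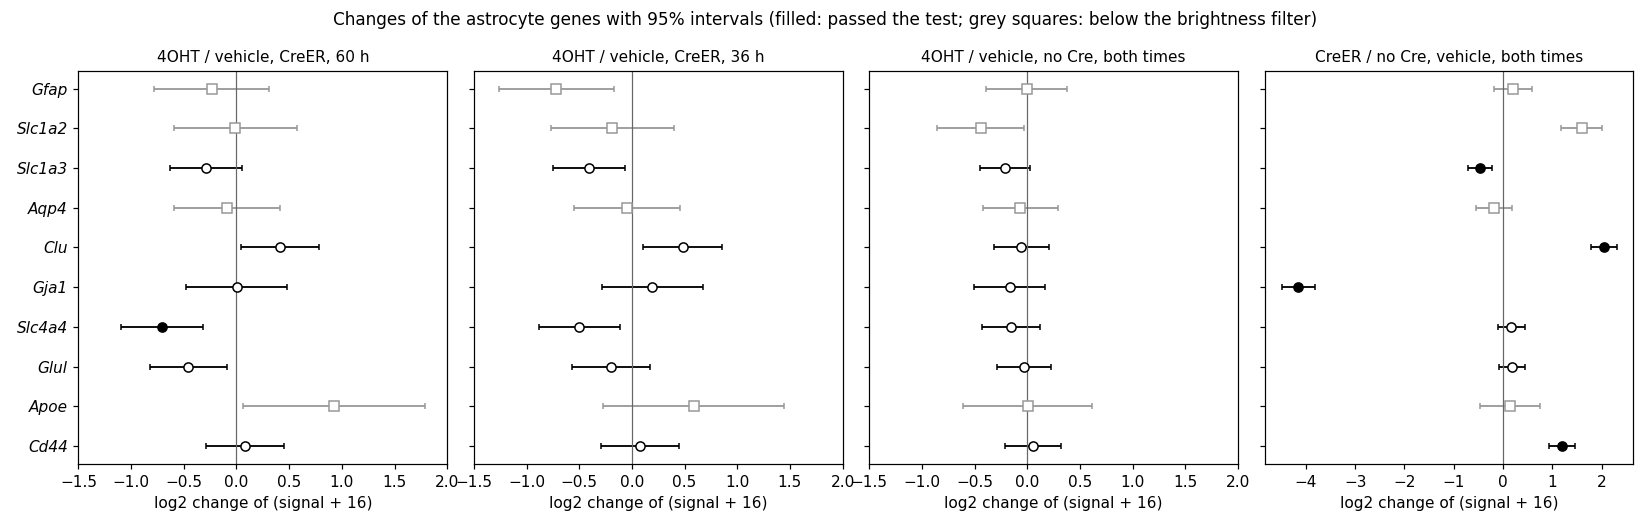
Log2 change of (signal + 16) of each gene with its 95% interval in 4 comparisons: 4OHT against vehicle in CreER cultures at 60 h and at 36 h, the same without Cre over both times, and CreER against no Cre under vehicle on a wider axis. Filled circles passed the test, open circles did not, and grey squares are genes below the filter from the fit of all genes; Slc4a4 at 60 h (−0.71) is the 1 filled circle among the 4OHT responses shown.

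At the single times fewer of the 6 tested genes passed. At 60 h Slc4a4 alone did, with −0.71 ± 0.20 (SE; limma adjusted p = 0.0092), against 7.02% of all genes. That call was lost without CreER vehicle 60 h replicate 2, the highest array, where the change was −0.48 (limma adjusted p = 0.16), and without CreER 4OHT 60 h replicate 1 (limma adjusted p = 0.083). The changes of Clu (0.42), Glul (−0.46) and Slc1a3 (−0.29) did not pass at 60 h. At 36 h 0 of 6 passed in limma, against 2.64% of all genes, with 0.48 for Clu (adjusted p = 0.19), −0.50 for Slc4a4 (0.19) and −0.41 for Slc1a3 (0.25). At an unadjusted p under 0.05 these 3 of 6 would count. The share of all genes at that cut is not given here, so this count cannot be set against it. The difference of the CreER response between 60 h and 36 h passed in limma for 0 of 6 genes (0 at an unadjusted p under 0.05), against 0.197% of all genes, and lay between −0.26 for Glul and 0.11 for Slc1a3. The median of all genes shifted by −0.11 at 60 h with values as deposited and by 0.02 after median scaling, and Slc4a4 was lower under each scaling.

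In cultures without Cre, 0 of 6 genes passed in limma for 4OHT against vehicle over both times (0 at an unadjusted p under 0.05), against 0.0656% of all genes. Their changes lay between −0.21 for Slc1a3 and 0.05 for Cd44, and each had a limma adjusted p of 1. The difference between the responses with CreER and without Cre passed in limma for 0 of 6 genes by the probe sets used, against 2.36% of all genes. At an unadjusted p under 0.05 it would count Clu and Slc4a4, 2 of 6, a cut for which no share of all genes is given. The difference passed for the second probe set of Slc4a4, at −1.02 ± 0.23 (SE; limma adjusted p = 0.0015), and for 1 of the 3 other probe sets of Clu (1418626_a_at), at 0.73 ± 0.21 (SE; limma adjusted p = 0.029). After median scaling the difference passed by the probe sets used for Clu (0.48, limma adjusted p = 0.018) and Glul (−0.33, limma adjusted p = 0.024).

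**Figure D3:**
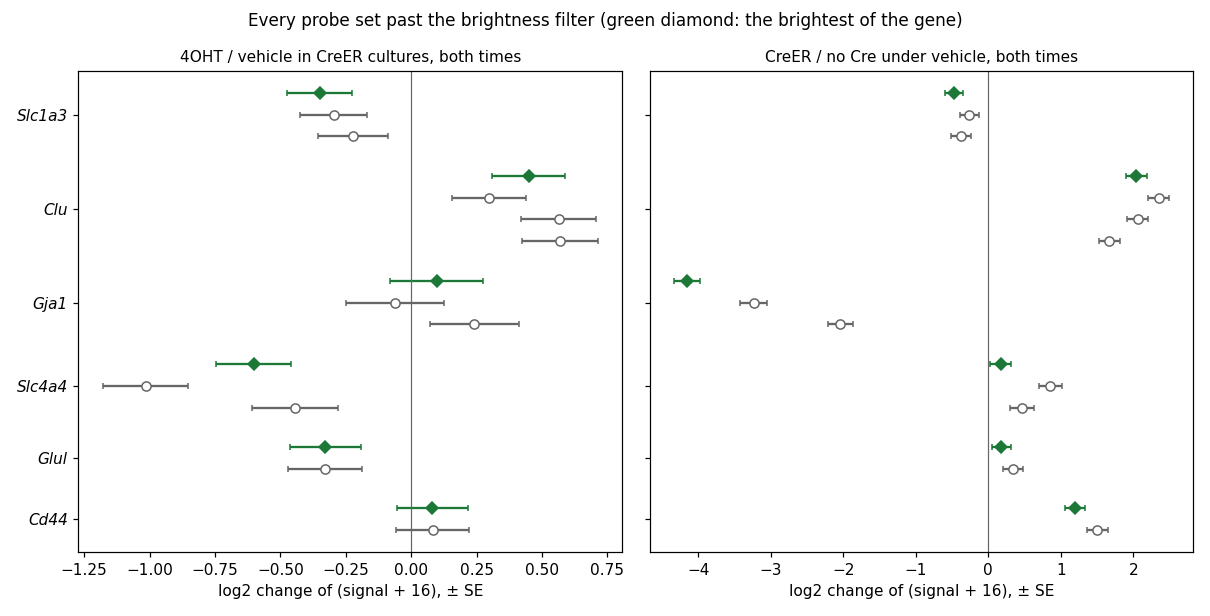
Log2 change of every probe set past the filter of the 6 tested genes, with its standard error, for 4OHT against vehicle in CreER cultures and for CreER against no Cre under vehicle; green diamonds are the brightest probe set of each gene and open circles the others. The probe sets of Slc4a4 past the filter spread from −1.02 to −0.44 for 4OHT, and those of Clu from 0.30 to 0.57.

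The largest differences among the 10 genes lay between the genotypes. Under vehicle, 4 of the 6 tested genes passed for CreER against no Cre, 2 higher and 2 lower, against 34.7% of all genes, 8.01% higher and 26.6% lower. Clu and Cd44 were higher and Gja1 and Slc1a3 lower in CreER cultures. Gja1 passed the filter only through the arrays without Cre and so had to differ, which makes its place in these counts no support for them. This comparison and the 4OHT comparison share the CreER vehicle arrays. The 4 genes did not overlap between genotypes at either time, as did 32.5% of all genes.

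Gja1, which encodes the gap junction protein connexin 43, ranged from 0.436 to 15.7 in the 8 CreER arrays, with a median of 2.87, and from 222 to 402 in the 8 arrays without Cre, with a median of 305. The genotypes were far apart on every array, whatever the treatment and time. Under vehicle the means were 4.34 ± 7.60 with CreER and 334 ± 54.6 without Cre (SD, n = 4 each). The CreER values are near background, so the fitted log2 change of −4.15 is no measure of the size: with 1 added to the signal in place of 16 it was −6.89. All 6 probe sets of the gene were separated by genotype over all 16 arrays, 3 of them past the filter. The brighter pair of the other 5 gave −3.24 and −2.04.

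Clu ranged from 571 to 1133 in the 8 CreER arrays, with a median of 909, and from 145 to 202 in the 8 arrays without Cre, with a median of 166. Under vehicle the change was 2.04 ± 0.13 (SE; limma adjusted p = 3.4e-50), and its 4 probe sets gave 1.67 to 2.35. Cd44 ranged from 902 to 1294 in the CreER arrays, with a median of 1141, and from 366 to 617 without Cre, with a median of 466. Under vehicle the means were 1074 ± 147 with CreER and 459 ± 44.1 without Cre (SD, n = 4 each), a change of 1.19 ± 0.13 (SE; limma adjusted p = 1.4e-17), and the second probe set gave 1.51. Gja1, Clu and Cd44, 3 of the 6 tested genes, did not overlap between all 8 CreER arrays and all 8 arrays without Cre, as did 10.7% of all genes. Gja1 passed the filter only through the arrays without Cre and so had to differ, which makes its place in this count no support for it.

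Slc1a2 was also separated by genotype, with 41.0 to 89.1 in the 8 CreER arrays and 1.84 to 17.9 in the 8 arrays without Cre. Under vehicle it had 65.9 ± 19.7 with CreER and 11.2 ± 6.59 without Cre (SD, n = 4 each), and the fit of all genes with no filter gave 1.59 ± 0.19 (SE; limma adjusted p = 1.2e-05). Without Cre it had 5.47 and 5.21 at 60 h and 1.85 and 1.84 at 36 h with 4OHT, against 12.7 and 17.9 at 60 h and 2.10 and 12.1 at 36 h with vehicle, all near background. The gene has 1 probe set on the array, so no second one could be compared.

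Slc1a3 had 1739 and 1555 at 60 h and 1532 and 1641 at 36 h in CreER cultures with vehicle, against 1800.0 and 2396 at 60 h and 2566 and 2291 at 36 h without Cre. The change was −0.47 ± 0.12 (SE; limma adjusted p = 8.0e-04), and with 4OHT included the genotypes overlapped. Its other probe sets gave −0.38, which passed, and −0.26, which did not (limma adjusted p = 0.10). With the actin ratio of each array as a covariate the change was 0.06 (limma adjusted p = 0.85), while that of Gja1 was −3.92, that of Clu 2.14 and that of Cd44 1.47. Slc4a4 (0.17) and Glul (0.18) did not pass by the probe set used. The other 2 probe sets of Slc4a4 past the filter gave 0.86 and 0.46 and passed (limma adjusted p = 1.7e-06 and 0.019), as did 0.34 for the second of Glul (0.042). After median scaling the brightest probe sets passed as well, with 0.33 for Slc4a4 (limma adjusted p = 0.042) and 0.35 for Glul (limma adjusted p = 2.2e-04). The median of all genes shifted by −0.13 in this comparison as deposited and by 0.04 after median scaling, and the split of all calls was 610 higher and 2030 lower as deposited against 2188 and 1786 after median scaling and 2223 and 1994 after quantile normalization. Gja1, Clu, Cd44 and Slc1a3 kept their direction and passed under both scalings.

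For 60 h against 36 h over the 4 conditions 0 of 6 genes passed in limma (0 at an unadjusted p under 0.05), against 11.8% of all genes, and their changes lay between −0.07 for Glul and 0.15 for Clu. Of the mature astrocyte genes listed further on, 5 of 15 were higher at 60 h, led by Agt (0.68), the glycogen regulator Ppp1r3c (0.46) and Htra1 (0.41). The second probe set of Cd44 passed, with 0.43 ± 0.10 (SE; limma adjusted p = 3.7e-04). It had 614 and 766 with 4OHT and 864 and 592 with vehicle at 60 h in CreER cultures, against 794 and 863 with 4OHT and 632 and 788 with vehicle at 36 h. Without Cre it had 340 and 332 with 4OHT and 282 and 328 with vehicle at 60 h, against 102 and 154 with 4OHT and 157 and 226 with vehicle at 36 h. The times were separated without Cre and overlapped with CreER, a difference that was not tested. The arrays without Cre at 36 h are those with the lowest actin ratios, and the part of RNA quality in this value was not tested.

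Other astrocyte genes were counted from lists chosen by function, with earlier results of these data known, so the counts are a description only. Of 40 mature astrocyte genes 29 were on the array and 15 were tested. For 4OHT against vehicle in CreER cultures 3 were higher and 0 lower, with a median change of 0.05 against −0.07 over all genes. Among all genes 12.4% passed in this comparison, 4% higher and 8.39% lower. S100b, a calcium-binding protein, rose by 1.05 ± 0.13, Agt, the angiotensin precursor made by astrocytes, by 0.88 ± 0.13, and Mlc1, a membrane protein of astrocyte end-feet, by 0.37 ± 0.11 (SE; limma adjusted p = 2.8e-12, 1.0e-08 and 0.012). Of 9 tested reactive astrocyte genes 3 were higher and 0 lower, namely the membrane protein Tm4sf1 (0.93), ceruloplasmin Cp (0.43) and S100a10 (0.35), with a median of 0.03. Of 23 tested astroglial regulators and early glial genes 1 was higher, the matrix protein Sparc (0.60), and 3 were lower, the BMP target Id3 (−0.35), Slc1a3 and the fatty acid binding protein Fabp7 (−0.27), with a median of 0.01. The interaction with genotype passed for S100b (1.37), Agt (1.15), Tm4sf1 (1.13) and Sparc (0.58), against 2.36% of all genes. Without Cre 0 genes of these 3 lists passed in limma for 4OHT, against 0.0656% of all genes. At an unadjusted p under 0.05 the counts were 5, 0 and 1. No share of all genes is given at that cut, so these counts cannot be set against it.

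**Figure D4:**
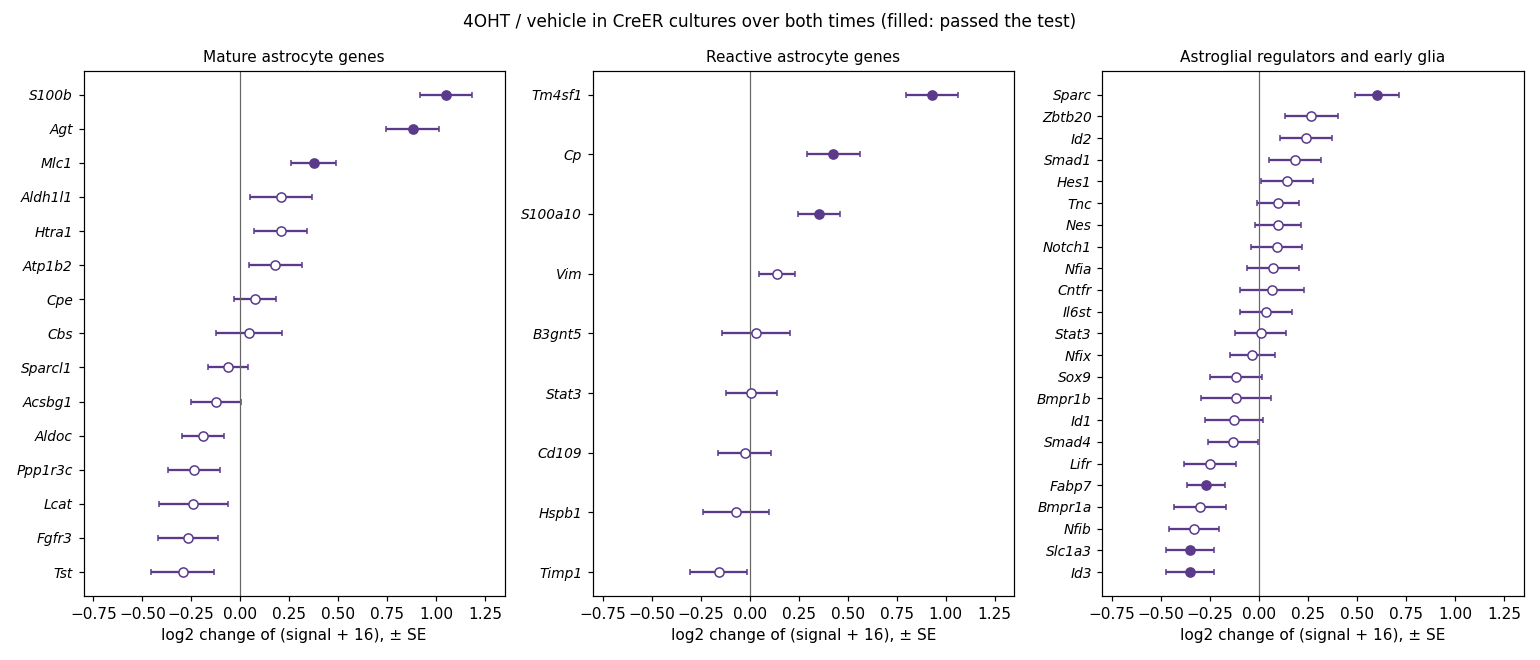
Log2 change of (signal + 16) with its standard error for 4OHT against vehicle over both times in CreER cultures, for every tested gene of 3 lists (15 mature astrocyte, 9 reactive astrocyte, 23 regulators and early glia); filled points passed the test. S100b (1.05), Tm4sf1 (0.93) and Agt (0.88) lie furthest to the right, and most genes lie within 0.35 of 0.

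The partners of the 10 genes were counted in the same way for 4OHT in CreER cultures. Of all genes tested, 12.4% passed in this comparison, 4% higher and 8.39% lower. Of 13 tested genes of glutamate and glutamine handling 0 passed in limma (3 at an unadjusted p under 0.05), the nearest being the cystine/glutamate exchanger Slc7a11 (0.42, adjusted p = 0.088). Of 10 tested genes of the end-foot complex and of potassium, water and acid transport 2 were lower, the sodium-potassium-chloride cotransporter Slc12a2 (−0.47) and the lactate transporter Slc16a1 (−0.40), and 0 were higher. Of 3 tested connexins and partners Gjc1, connexin 45, was lower (−0.41). Of 9 tested lipoprotein pathway genes the Apoe receptor Lrp1 was higher (0.44), and of 8 tested genes of CD44 and hyaluronan the hyaluronan receptor Hmmr, also a mitotic spindle protein, was lower (−0.68). Of 13 tested stem and progenitor cell genes 3 were lower, the proliferation marker Mki67 (−0.81), Pax6 (−0.40) and Fabp7, and 0 were higher. Of 3 tested neuronal genes Syt1 was higher (0.49) and Map2 lower (−0.38), and of 4 oligodendrocyte lineage genes 0 passed (1 at an unadjusted p under 0.05). The part of these changes in cell makeup was not tested. For the counts at an unadjusted p no share of all genes is given, so they cannot be set against it.

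Between the genotypes under vehicle, astrocyte genes lay on both sides. Of all genes tested, 34.7% passed in this comparison, 8.01% higher and 26.6% lower. A gene that passed the filter only through the arrays of 1 genotype, as Gja1 did, had to differ here. Which of the listed genes did so was not examined, so the counts below are no support for a difference. Of the 15 tested mature astrocyte genes 7 were higher and 3 lower in CreER cultures, with a median of 0.34 against −0.13 over all genes. The protease Htra1 (1.39) and the folate enzyme Aldh1l1 (1.09) were higher, while Agt (−1.92) and S100b (−1.48), which rose with 4OHT, were lower. Of the reactive astrocyte genes 1 was higher, the protease inhibitor Timp1 (0.98), and 5 were lower, among them B3gnt5 (−2.44), Cp (−1.90). Of the regulators and early glial genes 3 were higher and 9 lower, with Id1 at 1.27, Sox9 at −1.13 and Zbtb20 at −1.04. Of the end-foot and transport genes 1 was higher, Slc16a1 (0.69), and 6 were lower, among them carbonic anhydrase Car2 (−1.15) and dystrophin Dmd (−0.88). Gjc1 was higher (1.09), the other way from Gja1. Of the lipoprotein pathway 2 were higher, Lrp1 (0.44) among them, and 3 lower, among them Sorl1 (−1.82) and the lipase Lpl (−1.56). Of the glutamate list 3 were higher, among them the glutamine transporter Slc38a3 (0.56), and 1 lower, glutathione synthetase Gss (−0.71). Of the CD44 list 1 was higher, Ezr (0.43), and 2 lower, Vcan (−0.95) and Rdx (−0.34).

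The genes with the most similar pattern were taken by Pearson's r of log2(signal + 16) over the 16 arrays, which share genotype, treatment and brightness. For Gja1 these were Ddit4l (r = 0.995), Apeh (0.993) and Armcx1 (0.992), and for Clu Gdpd3 (0.989), Apln (0.986) and Tmem223 (0.986). With Gja1, r within the 8 CreER arrays was 0.52 to 0.85 over these 3 genes, and within the 8 arrays without Cre it was 0.82 for Ddit4l, 0.64 for Armcx1 and 0.10 for Apeh. In the CreER arrays Gja1 was near background, at 15.7 or less, so r there rests on values near background. With Clu, r was 0.57 to 0.92 within CreER arrays, and without Cre it was 0.48 for Gdpd3, 0.48 for Tmem223 and 0.073 for Apln. For Cd44 the nearest were the cyclin gene Ccnd2 (0.989), Aprt (0.982) and Fbln1 (0.982), and Ccnd2 kept 0.94 within CreER arrays and 0.83 without Cre. For Slc1a3 they were Riok1 (0.957), Pex3 (0.949) and Mrs2 (0.946), for Glul Gpam (0.933), Rpp25l (0.918) and Sbf2 (0.910), and for Slc4a4 Tex9 (0.805), Atm (0.804) and Trpc2 (0.780). The 10 genes themselves did not follow 1 pattern: over the 16 arrays Slc1a3 correlated at 0.74 with Gja1 and at −0.70 with Clu.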

How the data were processed

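In the deposited table each probe set has 1 linear intensity on each array, made with MAS5 per the submitters' processing notes; version and scaling target are not given in the sources used here. Total RNA was isolated in TRIzol and biotin-labelled, per the labels. Of 22690 probe sets 64 controls were left out, and 20380 of the others had 1 gene symbol in the platform annotation, 691 several and 1555 none. The brightest array's median was 1.44 times the dimmest's, under a limit of 1.5, so values were not rescaled.

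All 16 arrays entered 1 limma fit (limma 3.58.1, R 4.3.3) of 8 group means of log2(signal + 16) with a mean-variance trend, 8 residual degrees of freedom, two-sided tests and Benjamini-Hochberg adjustment over 7619 genes per comparison, called at 0.05. Prior degrees of freedom were infinite, so each gene's variance came from the shared trend. Fold changes on this scale understate dim genes. Probe sets were tested in a second fit of the same form over all probe sets past the filter. On simulated data for 4OHT in CreER cultures (7619 genes) the fit of genes found 60 of 67 genes set to 1.5-fold, all 67 set to 2-fold and all 66 set to 3-fold, and made 9 false calls. The simulated spread followed the shared trend alone, with no variance of each gene's own and no brightness shift between arrays. These figures therefore do not show how the test behaves on the real arrays.

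The 10 genes and all lists were chosen with earlier results of these data known. Each of the 10 is given in every comparison, and from each list up to 4 tested genes with the smallest p are named. Similar genes were the 3 with the highest r per gene. Alternatives were array scaling, the pseudocount, the filter, the variance model, the arrays in the fit, the replicate number, the actin ratio, other probe sets and leaving out each array. The precision is limited by how few arrays there are. Nr2e1 was not analysed here. Promoter windows came from RefSeq GRCm38.p6.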

Additional observations from a re-analysis of the deposited data

Results flagged for a closer look

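The 4OHT response differed between CreER cultures and cultures without Cre, by the interaction in limma, for 2 probe sets other than the brightest of their gene. For Slc4a4 (1426432_a_at) the difference was −1.02 (adjusted p = 0.0015): the signal was 59.7 to 99.0 with 4OHT and 145 to 196 with vehicle in CreER arrays, against 76.7 to 102 with 4OHT and 59.5 to 120.5 with vehicle without Cre. For Clu (1418626_a_at) it was 0.73 (adjusted p = 0.029): the signal was 442 to 625 with 4OHT and 287 to 375 with vehicle in CreER arrays, against 57.2 to 110.5 with 4OHT and 83.2 to 100.02 with vehicle without Cre. By the brightest probe set neither gene passed (−0.45 and 0.51).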

How the results depend on the processing

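Over 16 arrays, 2 per group, the count of the 6 tested genes past the threshold depended on the setting. For CreER cultures, 4OHT against vehicle with both times pooled, it was 3 as reported and 1 with no filter, with each gene's own variance, and with the arrays compared alone; leaving out each array gave 1 to 4. Slc4a4 passed in every one of these fits by the probe set used. At 36 h the count was 0 as reported and 1 after median scaling and after quantile normalization (Clu); leaving out arrays gave 0 to 0. At 60 h it was 1 as reported, 3 after median scaling, after quantile normalization and with the actin ratio as covariate, and 0 with no filter, own variance and the arrays compared alone; leaving out arrays gave 0 to 2. For the difference between the responses with CreER and without Cre it was 0 as reported and 2 after median scaling and after quantile normalization. For 60 h against 36 h it was 0 as reported, 2 after quantile normalization and 1 with the actin ratio. For CreER against no Cre under vehicle it stayed between 3 and 6, and at 4 whichever array was left out, and for 4OHT without Cre and for the difference between times it was 0 throughout. Of 972 recomputed values of the 10 genes, 104 changed sign where neither the reported value nor the alternative passed. Values that turned in direction where at least 1 of the pair passed were those of Slc1a3 with the actin ratio as covariate, 0.064 for CreER against no Cre and 0.68 for 60 h against 36 h, and of the dim Slc4a4 probe set, 0.13 for 4OHT in CreER cultures. The causes were not tested. Over all genes, 944 passed for 4OHT in CreER cultures as reported, 2510 after median scaling, 2951 after quantile normalization, 548 with no filter, 390 with own variance, and 521 to 1257 on leaving out arrays. At 36 h 201 passed as reported, 0 with own variance and 1631 after quantile normalization at the extremes, and 535, 56 (arrays compared alone) and 2260 at 60 h. For CreER against no Cre the numbers were 2640, 1290 (actin ratio) and 4217, for the difference of the responses 180, 0 and 1461, for the difference between times 15, 0 and 168, for 60 h against 36 h 900, 31 (actin ratio) and 3480 (median scaling), and for 4OHT without Cre 5, 0 and 62. The replicate numbers did not pair the samples: deviations of same-numbered arrays correlated at −0.13 to 0.31 over 28 pairs of groups, over 0.1 in 5. With the replicate block the count for 4OHT in CreER cultures was 2, and the others were as reported.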
